A study of Mus musculus with 6 samples.

Results

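Complement is a cascade of plasma and tissue proteins that tags debris, microbes and cell surfaces for removal. In the brain, microglia make C1q, the recognition molecule that starts the classical pathway, while astrocytes are a main source of C4 and C3. Deposited fragments are read by receptors on microglia and other myeloid cells, and the C1 inhibitor holds the first proteases in check. Complement is known for tagging synapses in development and for accumulating around amyloid plaques. The 9 genes described here were taken by name from the 56923 genes of the deposited table. They are C1qa, C1qb and C1qc (the chains of C1q), C4b and C3 (the components cleaved next), C3ar1 (the receptor for the C3a fragment), Itgam and Itgb2 (the chains of complement receptor CR3) and Serping1 (the C1 inhibitor). All 9 matched 1 identifier each.

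The libraries came from punches of the locus coeruleus, the noradrenaline nucleus of the pons. There were 3 from mice labelled 5xFAD transgenic (numbers 64, 65 and 79) and 3 from mice labelled wildtype (WT, numbers 62, 63 and 66). The 5xFAD line is a transgenic model of amyloid deposition, with expression driven by the Thy1 promoter, which is active in neurons. Age, sex, strain background and pooling are absent from the labels, and nothing there ties a number to an animal of its own. In the file headers each library's column ends in a lane-like suffix of its own, and 5xFAD and WT share none, so the group and whatever the suffix marks cannot be told apart in any difference given here. Each p-value thus reflects the spread among these 6 samples, which may be technical.

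Libraries held 15158712 to 17774759 reads assigned to genes in 5xFAD and 17362733 to 20079349 in WT. All 6 noradrenergic markers were read in every library. Their summed normalized counts were 8424 to 12350 in 5xFAD, 9801 and 11019 in WT 62 and 63, and 5823 in WT 66, the lowest of all libraries. A normalized count is a gene's read count divided by 1 size factor per library. WT 66 also stood apart in 6 choroid plexus markers, which summed to 125 to 151 in 5xFAD, 102 and 131 in the other WT libraries and 1322 in WT 66. Most of that sum was Ttr, at 1107 in WT 66, 12.5 to 61.2 in 5xFAD and 10.2 and 12.9 in the other WT libraries. Aqp1 alone was not highest in WT 66, at 9.19 against 11.4 in 5xFAD 65. Library 5xFAD 65 stood apart in the sum of 10 meningeal fibroblast markers, at 3089, against 1786 and 2134 in the other 5xFAD libraries and 1602 to 1931 in WT. The largest part of that sum was Igf2, at 1267. Col1a2 and Fmod were not highest in 5xFAD 65, at 380 against 454 in WT 66 and 94.6 against 120 in 5xFAD 79. Of 16411 genes that reached a normalized count of 10 in 3 or more libraries, limma called 1 (0.00609%) at an adjusted p under 0.05, Thy1, whose regulatory sequence drives the transgenes.

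C4b and its neighbour C4a are near-identical copies, and the pair is shown first because it sets how far the C4b counts can be read. In GENCODE M21 the longest transcript of C4b is annotated as protein-coding and that of C4a as a processed transcript. These transcripts, of 5379 and 5371 bases, were identical at 96.1% of 5367 aligned positions and differed at 207. Of all stretches of 100 bases in the C4b transcript, 16.5% also occurred in C4a without a mismatch, and 8.26% of stretches of 150 bases did. The read length is not given in the sources used here. The following 60 bases are the stretch inside 1 exon (exon 21 in both, coding in C4b) with the most differences, 13. They are printed 5′ to 3′ on the minus strand of GRCm38, at chr17:34735430-34735489 for C4b and chr17:34816086-34816145 for C4a. Capitals mark the bases that differ. A read is told apart by sequence only if it covers a difference, here or elsewhere in the transcripts. How reads shared by both copies were assigned is not given.
C4b: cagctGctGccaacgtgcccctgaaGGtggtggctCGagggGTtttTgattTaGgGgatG
C4a: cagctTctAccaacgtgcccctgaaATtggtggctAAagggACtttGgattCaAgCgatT

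The promoters of C1qb and C1qc are shown because the C1q genes lie side by side on chromosome 4 and kept the same order of reads in all 6 libraries. RefSeq (GRCm38.p6) held a promoter entry for 5 of the 9 genes, C1qb, C1qc, C3, C3ar1 and Itgam. The 250 bases before each start were searched on both strands for the letters GAGGAA of PU.1, a transcription factor of myeloid cells, for GAAA, any 2 bases and GAAA of interferon response elements and for TTCNNNGAA of STAT factors. PU.1 letters occurred once in C1qb, once in C1qc and 2 times in Itgam, and in neither C3 nor C3ar1. Of all 32851 promoters, 23.3% held them, so a match is common. The interferon letters (2.98% of all promoters) and the STAT letters (7.02%) occurred in none of the 5, which says only that these letters are not in this window. The C1qb sequence runs 5′ to 3′ on the minus strand at chr4:136886201-136886450 and that of C1qc at chr4:136892915-136893164, with PU.1 letters in capitals (reverse complement in C1qc).
C1qb: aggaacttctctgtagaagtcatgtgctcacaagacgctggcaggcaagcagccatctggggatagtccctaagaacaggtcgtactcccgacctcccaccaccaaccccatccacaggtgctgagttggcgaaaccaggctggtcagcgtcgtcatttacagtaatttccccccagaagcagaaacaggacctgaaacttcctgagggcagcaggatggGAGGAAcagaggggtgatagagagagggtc
C1qc: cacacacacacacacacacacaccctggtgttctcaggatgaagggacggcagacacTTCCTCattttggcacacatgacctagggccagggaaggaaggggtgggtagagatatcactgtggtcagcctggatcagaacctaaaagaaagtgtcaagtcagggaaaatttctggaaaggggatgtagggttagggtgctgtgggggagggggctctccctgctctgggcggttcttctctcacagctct

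Within the punches the 9 genes spanned a wide range of levels per length, given as normalized counts per kilobase of merged exons (GENCODE M21). The C1q chains led, with C1qa at 266 to 305 over the 6 libraries, C1qb at 232 to 273 and C1qc at 175 to 212. C4b followed at 42.5 to 79.9, then Serping1 at 26.3 to 65.2, Itgam at 36.2 to 46.8 and Itgb2 at 16.6 to 28.5. C3 lay at 8.88 to 10.1 and C3ar1 at 4.60 to 6.90. The ranges of C1qa and C1qb overlapped, and so did those of C4b and Serping1, of Serping1 and Itgam, of C4b and Itgam, and of Serping1 and Itgb2. The other neighbours in this order did not overlap. Counts at the low end rested on few reads, 20 to 32 per library for C3ar1 and 45 to 53 for C3, against 246 to 409 for C4b.

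The comparison between 5xFAD and WT asked whether complement transcripts differed in the punched tissue of the amyloid model. None of the 9 genes passed over the 16411 genes (adjusted p = 0.9995 for each, limma), where 0.00609% of all tested genes did. By edgeR on recovered reads none passed either (0.00609% of all genes), nor by DESeq2 (0.0244%). C4b and Serping1 were higher in all 3 5xFAD libraries than in all 3 WT libraries. The groups of the other 7 genes overlapped. Over all tested genes 3.72% were higher without overlap and 3.7% lower, 7.42% in either direction. An unadjusted p under 0.05 in limma was reached by the same 2 of the 9 genes, both higher, and by 2.32% of all tested genes (1.27% higher and 1.05% lower). Both also reached it in edgeR, where 2.3% of all genes did, and in DESeq2, where 0.926% did. The median log2 fold change was 0.05 over the 9 genes, of which 7 had higher and 2 lower values, and 0.0005 over all tested genes. In bulk tissue, fewer cells of a type and less RNA per cell cannot be told apart.

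C1qa (ENSMUSG00000036887.6), the A chain, read 307, 316 and 301 normalized counts in 5xFAD 64, 65 and 79 and 298, 276 and 318 in WT 62, 63 and 66. The groups overlapped, with WT 66 the highest library and WT 63 the lowest. Its log2 fold change was 0.05 (SE 0.09, 95% interval −0.15 to 0.25, n = 3 per group). C1qb (ENSMUSG00000036905.9), the B chain, read 297, 285 and 296 in 5xFAD and 291, 252 and 276 in WT. WT 63 was again the lowest, and WT 62 lay among the 5xFAD libraries. Its log2 fold change was 0.10 (SE 0.09, 95% interval −0.10 to 0.31). C1qc (ENSMUSG00000036896.6), the C chain, read 210, 255 and 225 in 5xFAD and 234, 229 and 246 in WT. Here the 5xFAD libraries held both the lowest and the highest value. Its log2 fold change was −0.04 (SE 0.11, 95% interval −0.28 to 0.19). For each chain the interval excluded a difference of 1.5-fold in either direction, as it did for 71.4% of all tested genes.

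The C1q protein is built from equal numbers of the A, B and C chains. Summed over the chains, C1q read 815, 856 and 822 in 5xFAD and 823, 757 and 839 in WT, a mean of 831 ± 21.99 in 5xFAD and 806 ± 43.5 in WT (SD, n = 3 each). The log2 ratio of C1qa to C1qb ran from 0.02 to 0.20 over the 6 libraries, that of C1qa to C1qc from 0.27 to 0.55 and that of C1qb to C1qc from 0.14 to 0.50. The A chain thus had the most reads in every library and the C chain the fewest. Set against 16 microglial markers, C1qa stood 0.60 ± 0.08 above their mean log2 level in 5xFAD and 0.61 ± 0.01 in WT, and C1qb 0.52 ± 0.01 in 5xFAD and 0.49 ± 0.09 in WT. C1qc stood 0.17 ± 0.18 above it in 5xFAD and 0.28 ± 0.04 in WT, and all 3 overlapped between the groups. The marker list itself summed to 4931 to 5363 in 5xFAD and 4661 to 5348 in WT, with 11 of 16 markers higher, 5 lower and 0 at an unadjusted p under 0.05.

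C4b (ENSMUSG00000073418.5), the component that activated C1s cleaves to tag surfaces, read 430, 425 and 340 normalized counts in 5xFAD 64, 65 and 79 and 228, 258 and 291 in WT 62, 63 and 66. The lowest 5xFAD library, 79, lay above the highest WT library, 66. The mean was 398 ± 50.7 in 5xFAD and 259 ± 31.3 in WT (SD, n = 3 each), and its difference on the log2 scale was 0.62 (SE 0.12, interval 0.34 to 0.90 at 95%). Its unadjusted p of 0.000634 ranked 3 among the 16411 tested genes, and it did not pass in limma (adjusted p = 0.9995), in edgeR on recovered reads (adjusted p = 0.9998) or in DESeq2 on recovered reads (adjusted p = 0.126). In the authors' deposited table its log2 fold change was 0.62 with an adjusted p of 0.252, as 5xFAD over WT. The value stayed between 0.53 (without WT 62) and 0.73 (without 5xFAD 79) when any 1 library was left out.

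C4a, whose transcript shares the sequence shown above, read 12.7, 20.8 and 15.0 in 5xFAD and 15.8, 20.6 and 15.3 in WT. Its groups overlapped, and its log2 fold change was −0.10 (SE 0.32, 95% interval −0.82 to 0.61). The ratio of C4b to C4a reads was 33.8, 20.5 and 22.7 in 5xFAD and 14.5, 12.5 and 19.0 in WT. Counted together, so that reads split between the copies do not matter, C4b and C4a summed to 443, 446 and 355 in 5xFAD and 244, 279 and 306 in WT, again without overlap.

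C4b was also compared with markers of astrocytes, a main source of C4 in the brain. Its log2 level lay below the mean of 10 general astrocyte markers by values of −3.62, −3.64 and −3.94 in 5xFAD and −4.53, −4.33 and −4.27 in WT, a difference of 0.64 with no overlap. Those markers summed to 91252 to 95364 in 5xFAD and 88977 to 100835 in WT, with 3 of 10 higher and 0 at an unadjusted p under 0.05. Their median log2 fold change was −0.04, so the 0.64 largely repeats the 0.62 of C4b itself and is no separate evidence. The 10 reactive astrocyte markers summed to 3529 to 4067 in 5xFAD and 2388 to 3238 in WT. Of the 7 that could be tested, 6 had higher and 1 lower values. Most of the sum was Gfap, the intermediate filament of astrocytes, at 2397 to 3074 in 5xFAD and 1493 to 2117 in WT, where the log2 fold change was 0.63 with an SE of 0.15. Cd44, which binds hyaluronan, was the other of the 7 tested markers with an unadjusted p under 0.05, at 0.50 with an SE of 0.22, and its groups overlapped. S100a6 was higher without overlap, at 0.26 (SE 0.19). Aspg at 0.37 (SE 0.29), Osmr at 0.20 (SE 0.21) and Vim, another intermediate filament, at 0.08 (SE 0.17) were higher with overlapping groups. Serpina3n, a secreted serpin, was the lower one at −0.13 (SE 0.17). As deviations from its mean over all libraries, the list stood at 0.26, 0.14 and 0.04 in 5xFAD 64, 65 and 79. In WT 62, 63 and 66 it stood at −0.11, −0.08 and −0.25. C4b stood at 0.43, 0.41 and 0.09 in 5xFAD and −0.48, −0.31 and −0.14 in WT. Within 5xFAD the list and C4b thus fell in the same order, while in WT 66 the list was lowest and C4b the highest of the WT libraries. No reactive marker passed over the 16411 genes (adjusted p = 0.9995, limma), while the authors' deposited table gives Gfap an adjusted p of 0.0244. The part of astrocyte reactivity in the C4b value was not tested.

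C3 (ENSMUSG00000024164.16), the component on which the pathways converge, read 52.0, 47.8 and 46.0 in 5xFAD and 48.3, 45.6 and 48.0 in WT. All 6 libraries lay close together and the groups overlapped. The mean was 48.6 ± 3.08 in 5xFAD and 47.3 ± 1.48 in WT (SD, n = 3 each), and the log2 fold change was 0.04 (SE 0.18, 95% interval −0.37 to 0.45), so a difference of 1.5-fold was excluded. C3 did not follow the fibroblast markers, whose mean log2 level was highest in 5xFAD 65. Its log2 level below their mean was −1.31, −2.02 and −1.24 in 5xFAD and −0.84, −1.10 and −1.29 in WT, with overlapping groups.

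C3ar1 (ENSMUSG00000040552.9), the receptor for C3a, read 28.9, 20.8 and 24.99 in 5xFAD and 29.7, 19.8 and 28.6 in WT, and its difference on the log2 scale was −0.05 (SE 0.27, interval −0.67 to 0.56 at 95%). Each group held 1 library near 20, 5xFAD 65 and WT 63. Itgam (ENSMUSG00000030786.19), the alpha chain of CR3 also known as CD11b, read 215, 209 and 194 in 5xFAD and 178, 182 and 231 in WT. WT 66 was the highest of all libraries and WT 62 the lowest. Its log2 fold change was 0.07 (SE 0.13, 95% interval −0.21 to 0.35). Itgb2 (ENSMUSG00000000290.14), the beta chain CD18 that pairs with several leukocyte integrin alpha chains, read 77.4, 52.0 and 59.99 in 5xFAD and 49.2, 52.5 and 84.7 in WT, and its difference on the log2 scale was 0.05 (SE 0.25, interval −0.51 to 0.61 at 95%). It was high in 5xFAD 64 and WT 66 and similar in the other 4 libraries. Per kilobase, Itgam stood at 1.64 to 2.42 times Itgb2 over the 6 libraries. The interval excluded a 1.5-fold difference for Itgam, but not for Itgb2 or C3ar1.

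These receptors are also carried by blood-borne myeloid cells, whose markers were near 0. Of 8 markers of monocytes and neutrophils, Ly6g, Retnlg and Camp were at 0 in all libraries, and the list summed to 1.16 to 12.5 in 5xFAD and 4.08 to 12.9 in WT. The 7 markers of border macrophages summed to 144 to 184 in 5xFAD and 114 to 153 in WT. Their mean log2 level deviated from its mean over all libraries by 0.13, 0.47 and 0.16 in 5xFAD 64, 65 and 79. In WT 62, 63 and 66 the deviations were −0.14, −0.29 and −0.33, without overlap. Only 3 of the 7 were high enough to be tested, 2 higher and 1 lower, so this mean rests in part on few reads. Relative to the microglial markers, C3ar1 differed by −0.12, Itgam by 0.003 and Itgb2 by −0.02 on the log2 scale between 5xFAD and WT, each with overlapping groups.

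Serping1 (ENSMUSG00000023224.13), the serpin that inactivates C1r and C1s, read 99.4, 131 and 78.0 normalized counts in 5xFAD 64, 65 and 79 and 52.9, 63.7 and 73.5 in WT 62, 63 and 66. The groups did not overlap, though 5xFAD 79 and WT 66 lay close to each other and 5xFAD 65 far above both. The mean was 103 ± 26.7 in 5xFAD and 63.4 ± 10.3 in WT (SD, n = 3 each), and its difference on the log2 scale was 0.67 (SE 0.22, interval 0.18 to 1.16 at 95%). It did not pass over all genes in limma (adjusted p = 0.9995), edgeR (adjusted p = 0.9998) or DESeq2 (adjusted p = 1.00), and its unadjusted p of 0.0123 ranked 52. Without 5xFAD 65 the log2 fold change was 0.48 and without WT 62 it was 0.55, each with an unadjusted p above 0.05 (limma, 0.0508 and 0.0514).

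Meningeal fibroblasts and vessel cells express Serping1, and the fibroblast markers moved with it. All 10 fibroblast markers had higher values in 5xFAD, 4 of them with an unadjusted p under 0.05 (Lum, Col1a1, Col3a1 and Fmod), with sums of 1786 to 3089 in 5xFAD and 1602 to 1931 in WT. None of the 10 passed over the 16411 genes (adjusted p = 0.9995, limma). Set against the mean of these markers, Serping1 lay at −0.39, −0.59 and −0.49 in 5xFAD and −0.71, −0.62 and −0.68 in WT on the log2 scale. That difference of 0.18 had no overlap and was smaller than the 0.67 before the markers were subtracted. Set against 11 endothelial and mural markers, which summed to 5970 to 6593 in 5xFAD and 5973 to 6349 in WT, the difference was 0.59 without overlap. The part of fibroblast content in the Serping1 value was not tested.

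Of 52 other complement genes, 27 passed the filter on low values and none was called (limma, 0.00609% of all genes called). 15 of the 27 had higher and 12 lower values, and the median log2 fold change was 0.004. By limma 2.32% of all tested genes had an unadjusted p under 0.05, and 1 of the 27 did. That gene was Cfp, which encodes properdin, the stabiliser of the alternative-pathway convertase. It read 91.3, 118 and 97.0 in 5xFAD and 78.0, 73.1 and 72.5 in WT, with no overlap and a difference of 0.44 on the log2 scale with an SE of 0.16 and a 95% interval of 0.09 to 0.79 (adjusted p = 0.9995, limma). It also peaked in 5xFAD 65, and without that library its log2 fold change was 0.33 with an unadjusted p of 0.0856 (limma). In DESeq2 on recovered reads its unadjusted p was 0.0503. C8g, a chain of the terminal component C8, read 9.00 to 12.5 in 5xFAD and 4.08 to 12.04 in WT.

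At the start of the classical and lectin pathways, 5 of 15 genes could be tested and none was called. The lectin-pathway protease gene Masp1 had a log2 fold change of 0.001 (SE 0.09, turning to −0.02 with quantile normalization) and the scavenger collectin Colec12 one of 0.09 (SE 0.15). C1rb, Fcnb and Mbl1 were at 0 in all libraries, as were Cfd and C9 among the alternative and terminal genes. The remaining receptors (5 of 9 tested) and inhibitors (15 of 18 tested) included abundant genes of neurons and glia with narrow intervals. Lrp1, a large endocytic receptor, was at a log2 fold change of −0.01 (SE 0.05, turning to 0.001 with quantile normalization) and the C1q-binding chaperone Calr at −0.04 (SE 0.11). Clu, the inhibitor of terminal assembly called clusterin, was at 0.03 (SE 0.06), and Sez6l2, a neuronal membrane protein with complement-control domains, at 0.03 (SE 0.10). Intervals excluded a 1.5-fold difference for 20 of the 27 genes, among them 14 of the 15 inhibitors, against 71.4% of all tested genes. Susd4, a membrane inhibitor named here after its values were seen, read 1438 to 1467 in 5xFAD and 1499 to 1576 in WT, without overlap. Its log2 fold change was −0.08 (SE 0.05). Of the 27 genes, 1 was higher (Cfp) and 1 lower (Susd4) without overlap, where 7.42% of all tested genes did not overlap in either direction.

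Genes whose pattern over the 6 libraries was most like that of C4b were picked by the smallest root mean square difference of centred log2 values among 14105 named genes outside the 9. They were the chloride channel gene Clcn1 (0.09), BC055308 (0.10), the synaptotagmin gene Syt10 (0.11), the helicase gene Recql4 (0.12) and Thap6 (0.12), where C4b itself had an SD of 0.38. Clcn1 read 55.5, 58.2 and 46.99 in 5xFAD and 34.4, 34.4 and 44.9 in WT. For the mean of the C1q chains they were Trak1 (0.008), Dcbld2 (0.02), Prr13 (0.02), Chm (0.02) and Mtus1 (0.02). The C1q mean had an SD of 0.06 over the libraries, so many genes with little variation lay near it.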

How the data were processed

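Bulk poly-A RNA sequencing of 3 5xFAD and 3 WT libraries was compared, grouped by sample title. STAR, RSEM, DESeq2 and the build mm39 appear, without versions or roles, in the submitters' processing notes. Whether counting used strand is not stated in the labels, which leaves overlapping genes uncertain. The authors deposited a signal per library that the file calls TPM. Its columns total 1.71e+07 to 1.80e+07, and 100% of values were whole multiples of 1 step (tolerance 0.001), so the values are counts divided by size factors and reads were recovered by multiplication. Per the file headers, the authors also deposited a log2 fold change with its standard error, a test score and a p-value. Its sign was WT over 5xFAD, by comparison with the library columns, and was turned here. Identifiers without version were matched to symbols (91.5%).

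The test ran on log2 of the normalized count plus 1, with limma 3.58.1 in R 4.3.3 (trend, robust), for genes at 10 or more in at least 3 libraries, with Benjamini-Hochberg adjustment over all 16411 at 0.05. The pseudocount understates changes of low genes. Alternatives used edgeR 4.0.16 and DESeq2 1.42.0 on recovered reads, which called 1 and 4 genes. Scripts were tested on simulated counts. The median 95% half-width was 0.254 log2 units. The members and lists were chosen with earlier results of these data known. Named were the 9 members, C4a, other complement genes with an unadjusted p under 0.05 or among the 2 highest of their list, the 5 genes most like C4b and C1q, and marker genes at 0 or with an unadjusted p under 0.05. Susd4, Ttr, Aqp1, Igf2, Col1a2 and the other reactive astrocyte markers were named outside this rule, after their values were seen. The libraries share no replicate number. Figures used Python 3.11.15 with matplotlib 3.10.9.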

Additional observations from a re-analysis of the deposited data

How the results depend on the processing

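No paired analysis was possible because the groups share no replicate number. Under 14 other settings (pseudocounts of 0.5 and 5, no filter or a filter of 50, quantile normalization, limma without trend and robust moderation, edgeR, DESeq2, and each library left out) 0 of the 9 genes and 0 of the other complement genes were called. C3, C3ar1, C4a and C8g gave no value under the filter of 50. C1qa, C1qb, C4b, Itgam and Serping1 kept their sign under all 14 settings, with C4b between 0.53 and 0.73 (adjusted p 0.126 to 1.00 by limma, edgeR or DESeq2) and Serping1 between 0.48 and 0.85 (adjusted p 0.813 to 1.00). Quantile normalization turned Masp1 to −0.0209 and Lrp1 to 0.00131. With single libraries left out, log2 fold changes of genes whose sign turned ranged for C1qc from −0.118 to 0.019, for C3 from −0.011 to 0.076, for C3ar1 from −0.231 to 0.066, for Itgb2 from −0.108 to 0.288, for C4a from −0.289 to 0.045, for Masp1 from −0.037 to 0.064, for Colec12 from −0.033 to 0.213, for Lrp1 from −0.049 to 0.0097, for Calr from −0.127 to 0.071, for Clu from −0.0205 to 0.069, for Sez6l2 from −0.0496 to 0.136. The cause was not tested. The 11 values set against marker lists moved by less than 1 SD under all 73 alternatives run on them, but 5 that lie near 0 changed sign. Against microglial markers C1qa ran from −0.058 to 0.0157, C1qb from −0.00267 to 0.0825, Itgam from −0.0629 to 0.075 and Itgb2 from −0.165 to 0.174, and C3 against endothelial markers from −0.0819 to 0.032. C3 against fibroblast markers ran from −0.591 to −0.199. C3ar1 and C4a rest on 11 to 32 reads per library, which limits what their values can show.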
